A study of Homo sapiens with 9 samples.

Results

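Both herbal extracts of the study were examined at their top dose against vehicle in SW1783, a human astrocytoma cell line grown in L-15 medium with 10% serum. The comparison takes the library of cells given 500 µg/mL of a 70% ethanol extract of Poria Cocos, a fungus, and the library of cells given 500 µg/mL of a 70% ethanol extract of Atractylodis Rhizoma, a plant rhizome, as 1 group of 2 libraries. It sets them against 3 libraries of cells given vehicle (DMSO), all after 24 h, so that 5 of the 9 libraries of the series enter. The remaining 4 libraries are the same extracts at 20 and 100 µg/mL, with 1 library each, and they appear below only as values by dose. Both herbs are tonifying herbal medicines in the series' wording, and the question was which genes both extracts moved the same way and which genes 1 extract moved. DMSO stands at 0.1% in the labels of the vehicle samples and at 2% in the series design, a discrepancy that was not settled, and no DMSO percentage is given for the treated libraries.

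The pair of treated libraries are different extracts and not replicates of each other. Every p-value therefore rests on the spread of few libraries. The labels do not say that the vehicle libraries came from separate cultures, so what the p-values capture is how these particular libraries scatter, and that scatter may be technical. The comparison uses 3 kinds of test. The group test sets both treated libraries as 1 group against vehicle, and its spread includes the difference between the extracts. The tests of single extracts, and of the difference between the extracts, assume that each lone treated library varies like the vehicle libraries. Levels are CPM, counts scaled to a common library size and composition, and are given for vehicle replicates 1, 2 and 3 in that order. Changes are log2 ratios ± standard error. A gene is called higher or lower where the p-value of edgeR's quasi-likelihood test, adjusted by Benjamini-Hochberg over all 17300 genes tested, is below 0.05, and all adjusted p-values below are of that kind.

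The 5 libraries held between 40269665 and 48905536 counts each, on 24530 to 25626 genes, with 5.65% to 6.46% on mitochondrial transcripts. Over 11564 well expressed genes (mean log2 CPM 2 or more), the log2 ratio between a pair of vehicle libraries had an SD of 0.0904 to 0.0972, against 0.228 to 0.239 between a vehicle library and either treated library, and 0.188 between the treated libraries at 500 µg/mL. Between vehicle and a library at 20 µg/mL it was 0.176 to 0.209, and between treated libraries of any dose 0.0983 to 0.211. The lowest of these was between Poria 20 and Atractylodis 100 µg/mL. Column names of the vehicle libraries and of all treated libraries follow different patterns, whose meaning the labels do not give. A difference between these sets of libraries cannot be told apart from a change shared by both extracts. Of the 10 astrocyte markers examined, 4 were expressed well enough to be tested. SOX9, a glial transcription factor, was among them, and GFAP, the intermediate filament protein that defines mature astrocytes, lay between 0 and 0.119 CPM in all 5 libraries. All 12 mesenchymal markers were tested, with VIM, the intermediate filament gene, at 6049.7, 5765 and 5984 CPM in vehicle. For sums of markers, the scaling factors were taken over all deposited genes and not only those tested. The summed astrocyte markers were at 156 to 157 CPM in vehicle, 142 CPM with Poria and 146 CPM with Atractylodis. The summed mesenchymal markers were at 14292 to 14635, 12488 and 11888 CPM. Single markers went both ways. SOX9 was lower with both extracts (-0.51 ± 0.044 and -0.35 ± 0.044), while SLC1A3, a glutamate transporter of astrocytes, was higher (0.23 ± 0.059 and 0.34 ± 0.06), with Poria not by DESeq2 (adjusted p = 0.13). Of the mesenchymal markers 4 were called lower and 1 higher for both extracts, against 11.3% and 8.61% of all genes tested. The count of 1 higher marker is near its share. In RNA from whole cultures, fewer cells of a kind and less RNA per cell cannot be told apart.

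With both extracts taken as 1 group, 1813 genes (10.5% of those tested) were called higher than in vehicle and 2127 (12.3%) lower. Most changes were small. Among the called genes the median size of the log2 change was 0.30 upward and 0.26 downward, and 245 genes were higher and 112 lower by at least 1.5-fold. Taken singly, 2750 genes (15.9%) were called higher and 3109 (18.0%) lower with Poria, and 2699 (15.6%) higher and 3089 (17.9%) lower with Atractylodis. With upper quartile scaling the group test called 2178 genes higher and 1798 lower, the opposite balance of directions. The group test also leans on every vehicle library. Without vehicle replicate 1, 2 or 3 it called 703, 841 or 797 genes higher and 1074, 1347 or 1189 lower. With a single treated library in the group it called more, 2746 higher and 3113 lower for Poria alone, and 2704 and 3096 for Atractylodis alone.

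Called for both extracts and in the same direction were 1489 higher genes (8.61% of those tested) and 1952 lower genes (11.3%), of which 1436 and 1863 also passed the group test. DESeq2, used as an alternative, called 499 and 1123. Upper quartile scaling gave 1803 higher and 1651 lower, so which direction held more genes depended on the scaling. At least a 1.5-fold change with both extracts was seen for 118 of the higher and 49 of the lower genes. A further 131 genes (0.757%) were called for both extracts in opposite directions, 75 of them higher with Atractylodis and 56 higher with Poria. Genes called for 1 extract only, and for the difference between the extracts as well, numbered 301 higher (1.74%) and 365 lower (2.11%) with Poria alone, and 356 higher (2.06%) and 438 lower (2.53%) with Atractylodis alone. With upper quartile scaling the last pair became 452 and 338. Without vehicle replicate 2, 560 genes were lower with Poria alone. The 2 single-extract comparisons share the vehicle libraries, so a chance deviation of vehicle enters both in the same direction. The difference between the extracts does not use the vehicle level. It was called for 1051 genes higher (6.08%) and 1113 genes lower (6.43%) with Atractylodis than with Poria, and for 1719 and 1577 without vehicle replicate 2.

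**Figure D1:**
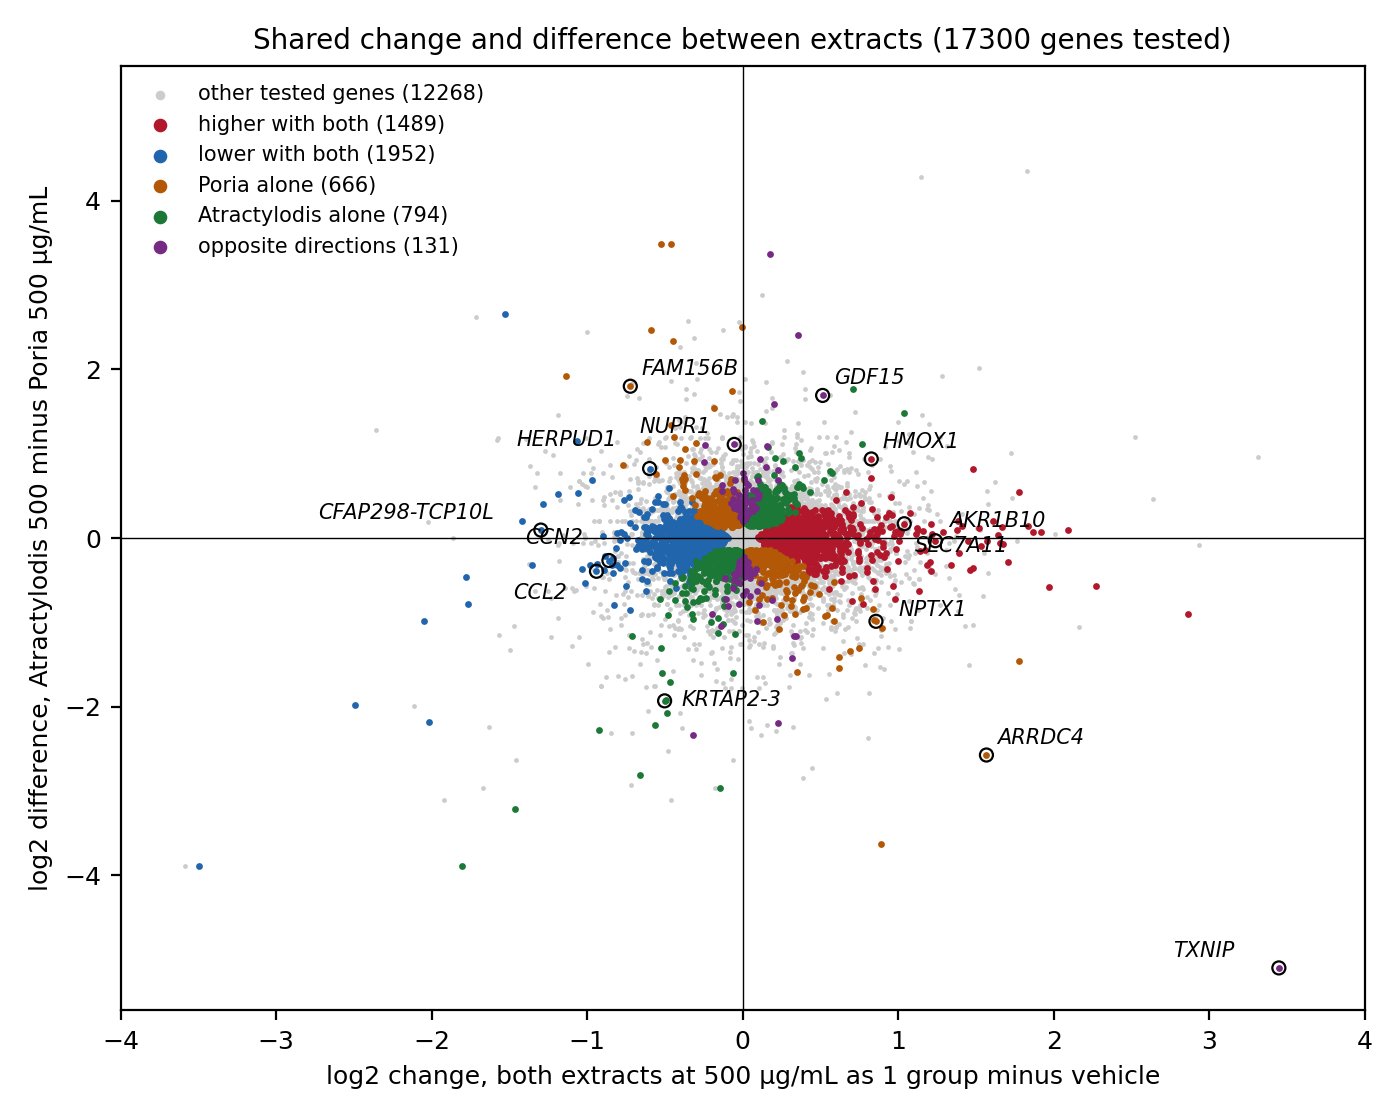
Each point is 1 of the 17300 genes tested. The x axis is the log2 change of both extracts at 500 µg/mL, taken as 1 group, minus vehicle, and the y axis is the log2 difference of Atractylodis minus Poria. Colours mark genes called the same way for both extracts (red and blue), for 1 extract with a called difference (orange and green) and in opposite directions (purple), and 42 genes lie outside the axes. AKR1B10 lies right of 0 on the x axis and near 0 on the y axis, CCN2 and CCL2 to the left, and TXNIP at the bottom right.

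Genes of the NRF2 antioxidant response were higher with both extracts. NRF2 is a transcription factor that KEAP1 keeps short-lived until electrophiles or oxidants modify KEAP1. It then switches on genes for quinone reduction, glutathione synthesis, reductive detoxification of aldehydes and storage of iron. Of 25 NRF2 target genes tested, 21 were called higher for both extracts and 0 lower, against 8.61% and 11.3% of all genes tested. The group test called 19 higher, Poria 23 and Atractylodis 22. The median log2 change over the 25 was 0.28 with Poria and 0.47 with Atractylodis, against 0.0049 and 0.0068 over all genes tested. The list was written with earlier results of these data known, and its counts depend on which genes it holds. SQSTM1, described below, is not on it, and was called lower with Poria and higher with Atractylodis.

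AKR1B10 (ENSG00000198074, chr7:134527592-134541408 on the plus strand), an aldo-keto reductase that reduces reactive aldehydes, was at 3.10, 3.37 and 3.13 CPM in vehicle, 7.62 CPM with Poria and 7.46 CPM with Atractylodis. The 2 treated levels were close to each other and more than 2 times every vehicle level, and the group change of 1.24 ± 0.10 (adjusted p = 0.0001) was the largest shared rise among well expressed genes that passed the group test. NQO1 (ENSG00000181019, chr16:69706996-69726951 on the minus strand), a quinone reductase, was at 127, 129 and 129 CPM in vehicle against 246 with Poria and 235 with Atractylodis. The vehicle libraries hardly differed and both treated libraries stood far above them (0.90 ± 0.041, adjusted p = 4.7e-06), while the difference between the extracts was -0.062 ± 0.044 and was not called (adjusted p = 0.42). SLC7A11 (ENSG00000151012, chr4:138164097-138242349 on the minus strand), which imports the cystine that glutathione synthesis needs, was at 93.6, 93.7 and 96.1 CPM in vehicle, 183 with Poria and 205 with Atractylodis. Both treated libraries were again above all vehicle libraries (1.04 ± 0.053, adjusted p = 4.9e-06), and Atractylodis was slightly above Poria (difference 0.17 ± 0.045, adjusted p = 0.012), a difference that DESeq2 did not call (adjusted p = 0.11).

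The aldo-keto reductases of the AKR1C cluster moved alike. AKR1C1 was at 19.9, 20.0 and 19.8 CPM in vehicle, 39.4 with Poria and 40.7 with Atractylodis (group change 1.01 ± 0.05). The same comparison gave 0.75 ± 0.084 for AKR1C2 and 0.90 ± 0.079 for AKR1C3. These genes are near-identical copies, so reads may be split between them and their separate values are uncertain. GCLM and GCLC, the modifier and catalytic subunits of the enzyme that makes the glutathione precursor, were called higher for both extracts as well, with 0.44 ± 0.042 and 0.51 ± 0.043 for GCLM and 0.26 ± 0.05 and 0.29 ± 0.051 for GCLC with Poria and Atractylodis. No difference between the extracts was called for either subunit.

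Within the same list HMOX1 and the ferritin gene FTH1 were higher with Atractylodis than with Poria. HMOX1 (ENSG00000100292, chr22:35380361-35394214 on the plus strand), which degrades haem, was at 85.9, 85.3 and 86.9 CPM in vehicle, 105 with Poria and 201 with Atractylodis. Poria lay a little above the vehicle libraries (0.28 ± 0.039, adjusted p = 1.5e-06) and Atractylodis far above them (1.22 ± 0.037, adjusted p = 3.9e-20). The difference was 0.94 ± 0.046 (adjusted p = 1.2e-14), and HMOX1 missed the group test (adjusted p = 0.19), whose spread holds that difference. FTH1, the heavy chain of the iron store ferritin, was at 1491, 1476 and 1489 CPM in vehicle, 1610.2 with Poria and 2076 with Atractylodis. All 3 vehicle levels were nearly equal, and the difference between the extracts was 0.37 ± 0.046 (adjusted p = 2e-06). The small rise of FTH1 with Poria (0.12 ± 0.038) was not called without vehicle replicate 1 (0.11, adjusted p = 0.096) or 3 (0.11, adjusted p = 0.088). TXNRD1, a thioredoxin reductase, went the other way, at 288, 299 and 291 CPM in vehicle, 458 with Poria and 361 with Atractylodis. Both treated libraries were above vehicle and Poria was the higher (difference -0.34 ± 0.045, adjusted p = 3.9e-06).

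Genes of the aryl hydrocarbon receptor followed Poria more than Atractylodis. This receptor is a transcription factor that planar ring compounds activate and whose classical targets are cytochrome P450 genes and its own repressor AHRR. Of 8 target genes tested, 3 were called higher for both extracts, and a further 4 were higher with Poria alone. Among all genes tested these shares were 8.61% and 1.74%, and 6.43% were called lower with Atractylodis than with Poria. The median log2 change was 0.79 with Poria and 0.17 with Atractylodis, and 6 of the 8 were called lower with Atractylodis than with Poria. NQO1 is a member of this list and of the NRF2 list.

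CYP1B1 (ENSG00000138061, chr2:38066973-38109902 on the minus strand), a cytochrome P450 of steroid and xenobiotic oxidation, was at 117, 117 and 109 CPM in vehicle, 193 with Poria and 163 with Atractylodis. Both treated libraries were above all vehicle libraries (group change 0.64 ± 0.069, adjusted p = 0.00057), and the Poria library was the higher one (difference -0.25 ± 0.049, adjusted p = 0.001). TIPARP, a receptor-induced ADP-ribosyltransferase, was at 59.3, 57.9 and 54.6 CPM in vehicle, 79.1 with Poria and 54.1 with Atractylodis. Here only the Poria library stood outside the vehicle range by a called amount (0.47 ± 0.046, adjusted p = 7.6e-09), and the difference between the extracts was -0.55 ± 0.059 (adjusted p = 1.2e-07). CYP1A1, the textbook target, was near the limit of detection, at 0.750, 1.04 and 0.947 CPM in vehicle, 2.08 with Poria and 0.821 with Atractylodis. The Atractylodis level fell inside the vehicle range and the Poria level was above it (1.19 ± 0.23, adjusted p = 0.00019). SLC7A5, an amino acid transporter on the list, moved against it and was lower with both extracts (-0.37 ± 0.038 and -0.17 ± 0.037), the fall with Atractylodis not being called under the GC correction described below (-0.075, adjusted p = 0.090).

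Other shared rises came from genes of varied function. THBD, the endothelial thrombin receptor thrombomodulin, was at 8.61, 8.35 and 8.21 CPM in vehicle, 15.0 with Poria and 14.3 with Atractylodis. TNFRSF25, a death domain receptor, was at 3.35, 3.57 and 3.69 CPM in vehicle, 6.16 with Poria and 6.25 with Atractylodis. In both genes the treated libraries lay close together and clear of vehicle, with group changes of 0.81 ± 0.073 (adjusted p = 0.00017) and 0.81 ± 0.10 (adjusted p = 0.00071). AHSA2P, a pseudogene related to an HSP90 co-chaperone, rose by 0.88 ± 0.066 in the group test, FAM227A by 0.71 ± 0.096 and the noncoding MEG9 by 0.84 ± 0.11. RN7SL2, an RNA of the signal recognition particle, also passed, but its vehicle libraries spread widely (3.49, 5.06 and 4.64 CPM), and its treated levels were 9.09 and 8.28 CPM. As a multicopy RNA it is an uncertain call.

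Long noncoding RNAs that stay in the nucleus were higher with both extracts too. All 8 members of that list were called higher for Poria and for Atractylodis, and 7 passed the group test, or 4 without vehicle replicate 1. Over all genes tested the higher shares were 15.9% with Poria, 15.6% with Atractylodis and 10.5% in the group test. Their median log2 change was 0.32 with Poria and 0.31 with Atractylodis. Corrected for GC content and length, 4 of the 8 were still called for both. MALAT1 (ENSG00000251562, chr11:65497688-65506516 on the plus strand), a nuclear speckle RNA, was at 888, 898 and 921 CPM in vehicle, 1163 with Poria and 1284 with Atractylodis. MEG3, the imprinted RNA transcribed from the same domain as MEG9, was at 565, 549.6 and 581 CPM in vehicle, 856 with Poria and 790.0 with Atractylodis. For both RNAs the treated libraries lay above every vehicle library, with group changes of 0.44 ± 0.05 (adjusted p = 0.00046) and 0.54 ± 0.048 (adjusted p = 0.00016). NEAT1, the scaffold of paraspeckles, was at 285, 297 and 298 CPM in vehicle, 393 with Poria and 645 with Atractylodis. Both were higher than vehicle, and Atractylodis was higher than Poria (difference 0.71 ± 0.046, adjusted p = 4.2e-12). This list was written as a sign of RNA quality, and its part in the other shared rises was not tested.

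**Figure D2:**
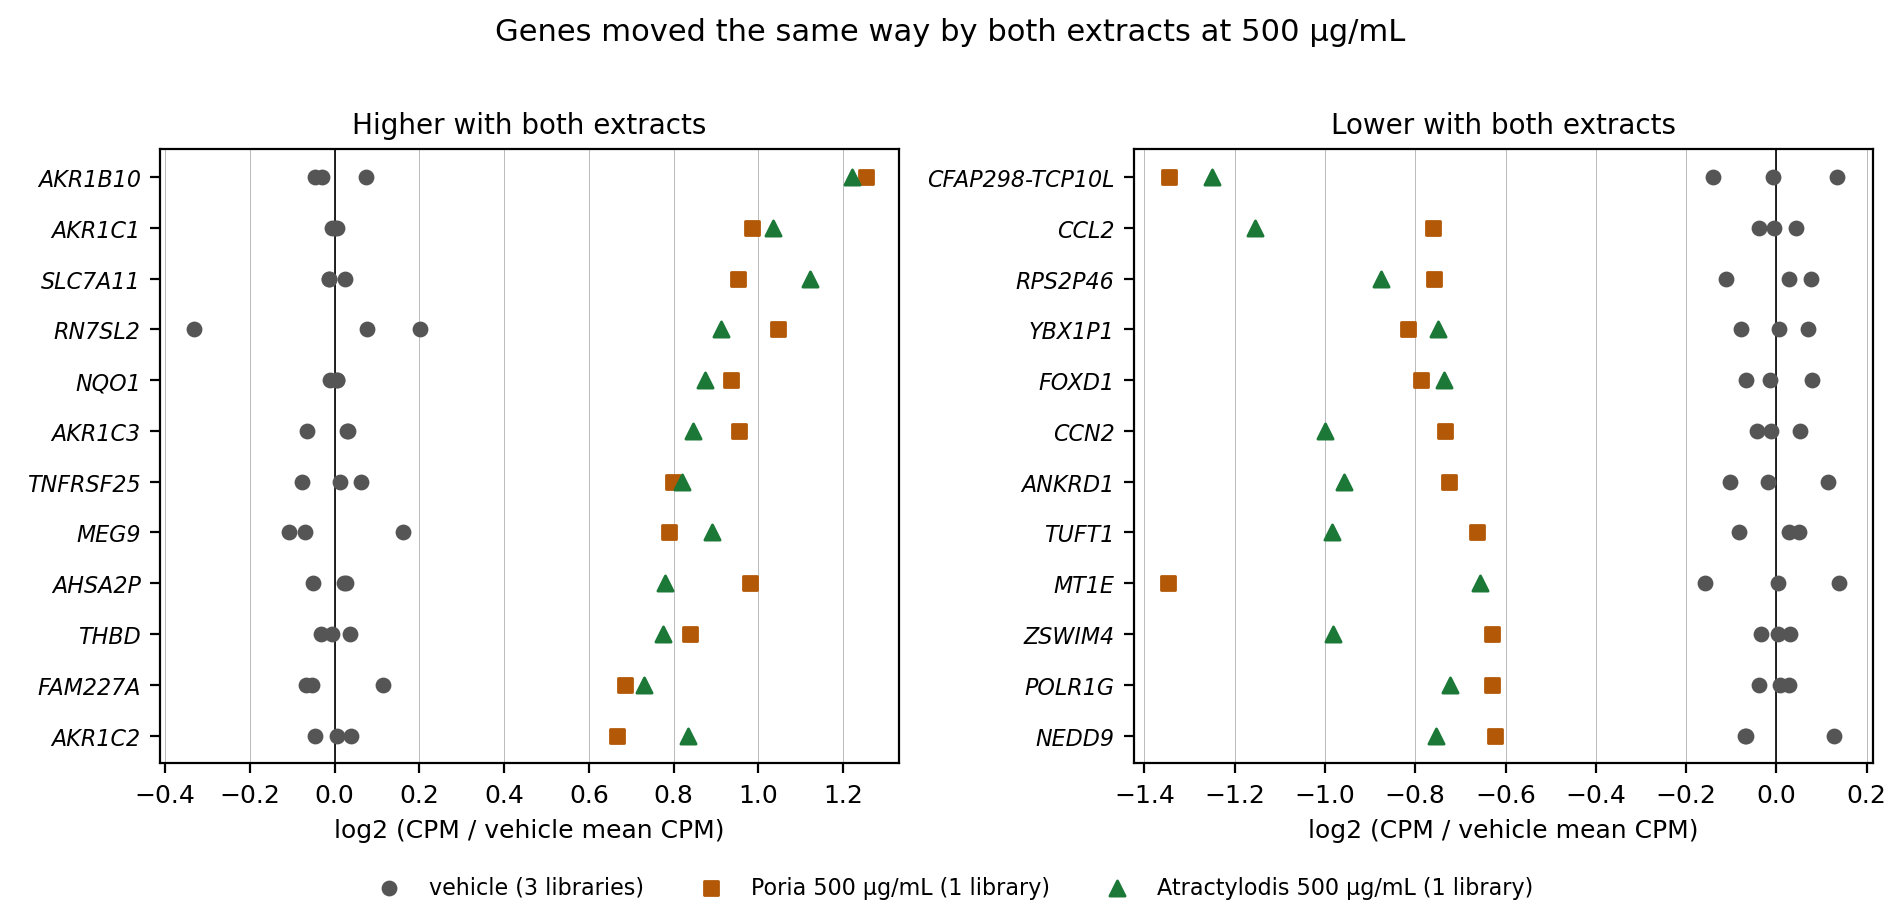
The x axis is log2 of CPM over the mean vehicle CPM, and each row is 1 of the 12 higher (left) or 12 lower (right) genes with the largest change shared by both extracts. Grey circles are the 3 vehicle libraries, orange squares the Poria library and green triangles the Atractylodis library. In every row both treated libraries lie on the same side of all 3 vehicle libraries, a pattern that 25.9% of all tested genes show upward and 24.9% downward.

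On the lower side, targets of TGF-beta and of the YAP and TAZ coactivators were lower with both extracts. TGF-beta acts through SMAD factors and drives contractile and matrix genes. YAP and TAZ enter the nucleus in spread, tense cells and act through TEAD factors on genes such as CCN2 and ANKRD1. Of 17 genes tested, 10 were called lower for both extracts and 0 higher, the group test called 11 lower, and the median log2 change was -0.33 with Poria and -0.40 with Atractylodis. Of all genes tested 11.3% were called lower for both and 12.3% in the group test. The promoters of the pair of YAP targets that fell with both extracts are shown because the TEAD site core, GGAATG, recurs in them. RefSeq promoters on GRCh38.p14 are printed from 250 bases before the start to the last base before it, on the gene's own strand, with the core in capitals. The CCN2 window is chr6:131951373-131951622 on the minus strand, with cores beginning 169, 104 and 95 bases before the start, and the ANKRD1 window is chr10:90921088-90921337 on the minus strand, with cores at 220 and 128 bases.
CCN2: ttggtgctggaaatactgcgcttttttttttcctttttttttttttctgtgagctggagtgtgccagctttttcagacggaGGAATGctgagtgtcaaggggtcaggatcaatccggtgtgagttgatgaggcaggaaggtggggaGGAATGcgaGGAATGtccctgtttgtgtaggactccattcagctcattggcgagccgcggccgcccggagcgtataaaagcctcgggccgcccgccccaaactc
ANKRD1: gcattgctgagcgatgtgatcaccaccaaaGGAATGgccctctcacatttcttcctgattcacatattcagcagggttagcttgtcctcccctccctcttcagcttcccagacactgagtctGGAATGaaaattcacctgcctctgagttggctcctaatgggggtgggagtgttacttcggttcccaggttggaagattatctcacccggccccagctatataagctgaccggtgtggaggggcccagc
Searched on both strands over 300 bases (250 before to 50 after the start), the core occurred in 7 of 19 promoters of 13 matched genes of the list (36.8%), against 14.0% of all 35116 promoters. A match describes letters and not a bound site.

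CCN2 (ENSG00000118523, chr6:131948176-131951373 on the minus strand), the secreted connective tissue growth factor, was at 197, 206 and 193 CPM in vehicle, 119.6 with Poria and 99.4 with Atractylodis. Both treated libraries were far below vehicle (group change -0.86 ± 0.074, adjusted p = 0.00028), and Atractylodis was the lower (difference -0.27 ± 0.051, adjusted p = 0.00063). ANKRD1 (ENSG00000148677, chr10:90912096-90921276 on the minus strand), a nuclear ankyrin repeat protein of muscle and stretched cells, was at 13.5, 12.7 and 14.8 CPM in vehicle, 8.25 with Poria and 7.02 with Atractylodis. It fell by a similar amount (-0.83 ± 0.097, adjusted p = 0.00048), with no called difference between the extracts.

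Contractile genes of the list fell almost equally with both extracts. TAGLN (ENSG00000149591, chr11:117199321-117204782 on the plus strand), an actin-binding protein of smooth muscle and myofibroblasts, was at 362, 349 and 347 CPM in vehicle, 226 with Poria and 233 with Atractylodis (group change -0.62 ± 0.043, adjusted p = 6.4e-05). ACTA2, smooth muscle actin, was at 143, 134 and 135 CPM in vehicle, 96.0 with Poria and 90.9 with Atractylodis, and MYL9, a myosin regulatory light chain, at 308, 296 and 306 CPM in vehicle, 213 with Poria and 199 with Atractylodis. In all 3 genes both treated libraries were below every vehicle library, and no difference between the extracts was called. Cytoplasmic actin ACTB was lower as well, at 9974, 10116 and 9659 CPM in vehicle, 7275 with Poria and 7307 with Atractylodis (-0.44 ± 0.048, adjusted p = 0.00035), as was the glycolytic enzyme gene GAPDH (-0.26 ± 0.047, adjusted p = 0.0038). Both are common reference genes.

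A pair of the list's members went in opposite directions. CCN1 (ENSG00000142871, chr1:85580761-85583962 on the plus strand), a secreted YAP target akin to CCN2, was at 366, 360.3 and 366 CPM in vehicle, 517 with Poria and 310.0 with Atractylodis. Poria lay above all vehicle libraries (0.51 ± 0.035, adjusted p = 8.3e-12) and Atractylodis below them (-0.23 ± 0.037, adjusted p = 1.4e-05), a difference of -0.74 ± 0.045 (adjusted p = 1.2e-12). AJUBA, a LIM protein that restrains Hippo kinases, showed the same order more weakly, and without vehicle replicate 1 its rise with Poria was not called (0.11, adjusted p = 0.099, against 0.14 with all libraries).

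Matrix genes were lower in part. Of 25 tested, 12 were called lower for both extracts and 1 higher, with medians of -0.20 for Poria and -0.12 for Atractylodis. The shares of all genes tested were 11.3% lower and 8.61% higher for both. COL1A1, the main chain of type I collagen, was at 4157, 4253 and 4233 CPM in vehicle, 3091 with Poria and 3207 with Atractylodis. Both treated libraries were well below vehicle and alike (-0.42 ± 0.046, adjusted p = 0.00035). Genes of cholesterol synthesis, which SREBP2 drives when sterols run low, were lower for both extracts in 10 of 24 cases and higher in 0. The medians were -0.13 with Poria and -0.23 with Atractylodis.

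CCL2 (ENSG00000108691, chr17:34255218-34257203 on the plus strand), a chemokine that attracts monocytes, was at 38.7, 37.4 and 36.6 CPM in vehicle, 22.2 with Poria and 16.9 with Atractylodis. It was lower in both treated libraries than in any vehicle library (-0.94 ± 0.10, adjusted p = 0.0011) and lowest with Atractylodis (difference -0.39 ± 0.077, adjusted p = 0.00072). FOXD1 (ENSG00000251493, chr5:73444827-73448527 on the minus strand), a forkhead transcription factor of stromal cells, was at 46.6, 51.6 and 48.4 CPM in vehicle, 28.3 with Poria and 29.3 with Atractylodis (-0.76 ± 0.058, adjusted p = 8.9e-05). CCND1, the cyclin of early G1, was at 205, 209.9 and 208 CPM in vehicle, 154 with Poria and 142 with Atractylodis (-0.49 ± 0.046, adjusted p = 0.00022). For FOXD1 and CCND1 the treated libraries were alike and clear of vehicle. RELB, an NF-kB subunit, fell by 0.51 on the log2 scale in the group test, TUFT1 by 0.81, ZSWIM4 by 0.79, NEDD9 by 0.68 and POLR1G, a subunit of RNA polymerase I, by 0.68.

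Among well expressed genes that passed the group test, the largest shared fall was that of CFAP298-TCP10L, a readthrough transcript of 2 neighbouring genes, at 9.83, 8.91 and 8.11 CPM in vehicle, 3.52 with Poria and 3.76 with Atractylodis. Its reads may be shared with CFAP298, and the pseudogenes RPS2P46 and YBX1P1 share sequence with expressed genes, so these 3 are uncertain. MT1E, a metallothionein that binds zinc and copper, was at 26.6, 24.2 and 21.6 CPM in vehicle, 9.48 with Poria and 15.3 with Atractylodis. Both treated levels were below vehicle, but the group call (-0.97 ± 0.23, adjusted p = 0.049) was lost without vehicle replicate 1, 2 or 3 (adjusted p = 0.11, 0.10 and 0.084). Of 25 ribosomal protein genes, 12 were called lower for both extracts and 0 higher, against 11.3% and 8.61% of all genes tested, with medians of -0.17 and -0.10. Among them RPL11 was at 885, 878 and 871 CPM in vehicle and at 664 and 651 CPM with Poria and Atractylodis (-0.42 ± 0.042, adjusted p = 0.00027).

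**Figure D3:**
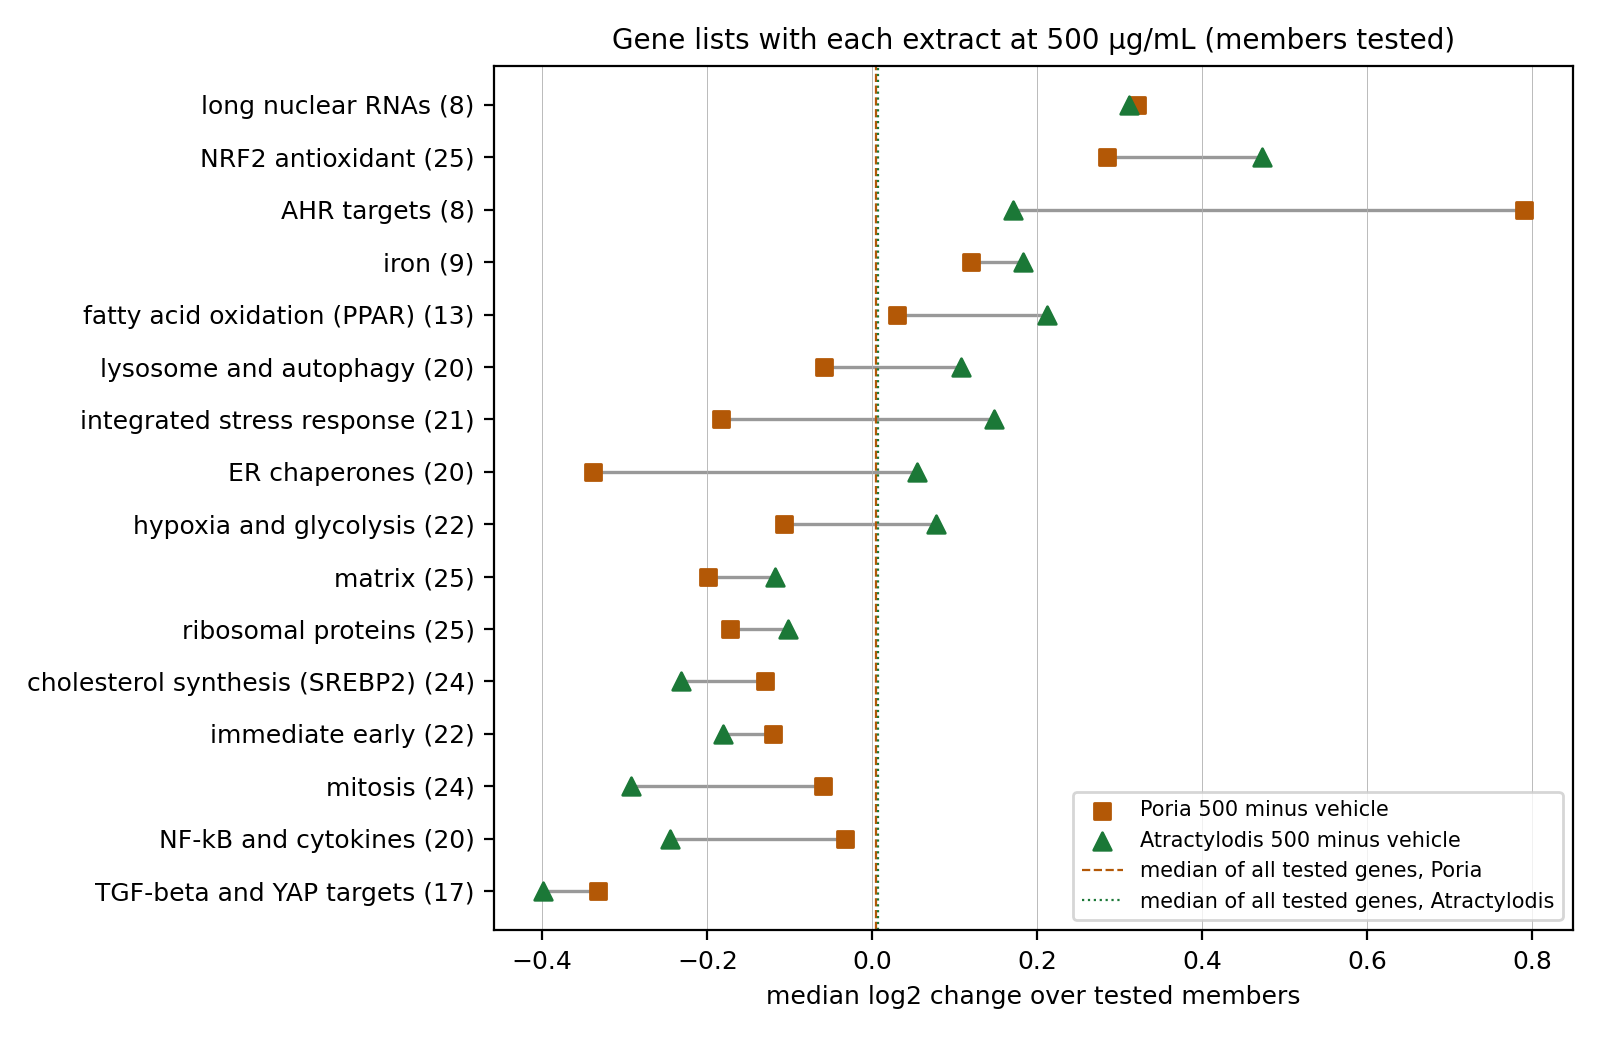
Each row is 1 gene list with its number of tested members. The x axis is the median log2 change over those members, with squares for Poria 500 and triangles for Atractylodis 500 µg/mL, each minus vehicle. The rows are a chosen part of the lists. Some lists with medians near 0, such as the interferon list (0.006 and 0.009), are not shown. Dashed and dotted lines are the medians of all tested genes (0.0049 and 0.0068). The NRF2 list lies right of these lines for both extracts (0.28 and 0.47) and the TGF-beta and YAP list left of them (-0.33 and -0.40), while the endoplasmic reticulum chaperones lie at -0.34 with Poria and 0.05 with Atractylodis.

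TXNIP (ENSG00000265972, chr1:145992435-145996600 on the minus strand) was moved by the extracts in opposite directions. It encodes an arrestin-like protein that binds thioredoxin and lowers glucose uptake, and its transcription follows the sugar-sensing factors MondoA and ChREBP. It was at 10.4, 10.8 and 9.42 CPM in vehicle, 215 with Poria and 6.29 with Atractylodis. The Poria library stood far above all others (4.40 ± 0.049, adjusted p = 4.2e-32, 21.1-fold) and the Atractylodis library below all vehicle libraries (-0.70 ± 0.093, adjusted p = 9.4e-07). ARRDC4, its paralogue under the same factors, was at 6.80, 7.21 and 5.88 CPM in vehicle, 33.2 with Poria and 5.59 with Atractylodis. It rose with Poria (2.33 ± 0.077, adjusted p = 8.3e-19), the change with Atractylodis of -0.25 ± 0.12 was not called, and the difference was -2.57 ± 0.11 (adjusted p = 4e-16). Over the 13 genes of the sugar-sensing list the medians were 0.07 and 0.03, with 5 called higher and 3 lower for Poria, and 4 higher and 4 lower for Atractylodis. The shares of all genes tested were 15.9% and 18.0% for Poria, and 15.6% and 17.9% for Atractylodis. ARRDC3, a further arrestin-domain gene of the list, was at 63.9, 68.0 and 60.8 CPM in vehicle, 88.9 with Poria and 92.3 with Atractylodis. It was higher with both extracts by nearly the same amount (0.47 ± 0.048 and 0.52 ± 0.049), with no called difference.

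Also raised by Poria alone were NPTX1, a neuronal pentraxin of synapses, at 5.09, 4.48 and 4.83 CPM in vehicle, 11.5 with Poria and 5.79 with Atractylodis, and LINC01119, TMEM171 and ALDH1A3-AS1 (DESeq2 adjusted p = 0.058 for TMEM171). The Atractylodis level of NPTX1 was above the vehicle range but not called (0.27 ± 0.12, adjusted p = 0.084). ALDH1A3-AS1 overlaps ALDH1A3, a retinaldehyde dehydrogenase, and whether the counting used strand is not given in the sources used here, so the pair cannot be told apart with certainty. ALDH1A3 itself was at 697, 696 and 689.6 CPM in vehicle, 1229 with Poria and 811 with Atractylodis. Both treated libraries were above vehicle and Poria was the higher (difference -0.60 ± 0.045, adjusted p = 1.3e-10). Lowered by Poria alone were FAM156B, at 13.3, 11.4 and 10.7 CPM in vehicle, 3.25 with Poria and 11.3 with Atractylodis, and FAM13B, at 71.9, 73.0 and 67.2 CPM in vehicle, 34.6 with Poria and 65.9 with Atractylodis. In each the Atractylodis level lay within or just below the vehicle range, and the differences were 1.80 ± 0.15 (adjusted p = 5.1e-08) and 0.93 ± 0.063 (adjusted p = 2.1e-11). FAM156B has a near-identical neighbour, FAM156A, and its value is uncertain. Under the GC correction described below, NPTX1 (0.35) and FAM13B (-0.21) were called with Atractylodis too.

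Chaperones of the endoplasmic reticulum separated the extracts. When unfolded proteins accumulate there, the sensors ATF6 and IRE1 raise folding enzymes and export factors through ATF6 itself and XBP1, and the sensor PERK adds the integrated stress response through ATF4. Of 20 chaperone and folding genes, 19 were lower and 0 higher with Poria. With Atractylodis 6 were higher and 4 lower, and 19 of the 20 were called higher with Atractylodis than with Poria. Over all genes tested, 18.0% were lower with Poria, and 15.6% higher and 17.9% lower with Atractylodis. The share higher with Atractylodis than with Poria was 6.08%. The 4 lower genes with Atractylodis are thus near their background. The median log2 change was -0.34 with Poria and 0.05 with Atractylodis. The rises with Atractylodis numbered 3 without vehicle replicate 1 and 4 without vehicle replicate 3.

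The promoters of 4 of these genes are shown because they hold the endoplasmic reticulum stress element, the letters CCAAT and CCACG with 9 bases of any kind between them, which ATF6 recognises together with NF-Y. The printed windows are again the 250 bases before the start from RefSeq on GRCh38.p14, on the gene's strand, with the fixed letters of the element in capitals, and on the opposite strand the element reads as its reverse complement. They are chr9:125241344-125241593 (minus strand) for HSPA5, chr12:103930160-103930409 (plus) for HSP90B1, chr19:12938359-12938608 (plus) for CALR and chr22:49918384-49918633 (plus) for CRELD2.
HSPA5: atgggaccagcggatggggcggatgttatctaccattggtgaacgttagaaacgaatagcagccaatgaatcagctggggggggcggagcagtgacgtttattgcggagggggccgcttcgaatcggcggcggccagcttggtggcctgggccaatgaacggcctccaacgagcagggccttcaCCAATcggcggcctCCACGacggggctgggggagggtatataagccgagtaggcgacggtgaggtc
HSP90B1: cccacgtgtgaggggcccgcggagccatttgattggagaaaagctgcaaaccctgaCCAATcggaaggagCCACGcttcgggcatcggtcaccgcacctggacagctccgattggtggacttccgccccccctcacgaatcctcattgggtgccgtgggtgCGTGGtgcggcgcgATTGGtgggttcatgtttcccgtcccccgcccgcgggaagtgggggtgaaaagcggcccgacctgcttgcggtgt
CALR: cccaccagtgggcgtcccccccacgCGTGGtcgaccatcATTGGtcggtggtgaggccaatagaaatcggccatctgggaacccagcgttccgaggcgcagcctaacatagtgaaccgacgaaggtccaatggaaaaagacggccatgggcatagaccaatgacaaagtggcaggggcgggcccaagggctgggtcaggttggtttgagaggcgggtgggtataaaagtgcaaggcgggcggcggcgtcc
CRELD2: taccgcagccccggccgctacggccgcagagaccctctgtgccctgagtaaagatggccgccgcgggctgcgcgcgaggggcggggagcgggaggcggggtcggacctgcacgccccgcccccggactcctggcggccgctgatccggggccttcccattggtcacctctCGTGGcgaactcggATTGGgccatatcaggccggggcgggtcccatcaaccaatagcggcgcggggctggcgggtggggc
The element begins 66 bases before the start in HSPA5, 194 and 89 (opposite strand) in HSP90B1, 225 (opposite strand) in CALR and 80 (opposite strand) in CRELD2. On both strands of the 300-base windows it occurred in 9 of 25 promoters of 19 matched genes of the list (36.0%), against 27 of all 35116 promoters (0.0769%). These counts describe letters of known chaperone promoters and not bound sites, and the element's part in the changes was not tested.

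HSPA5 (ENSG00000044574, chr9:125234853-125241330 on the minus strand), the chaperone BiP, was at 3334, 3473 and 3558 CPM in vehicle, 2474 with Poria and 3837 with Atractylodis. Poria was below and Atractylodis above all vehicle libraries. The fall with Poria was called (-0.48 ± 0.043, adjusted p = 9.2e-10), as was the difference (0.63 ± 0.051, adjusted p = 5.8e-10). The rise with Atractylodis (0.15 ± 0.041, adjusted p = 0.0051) was not called without vehicle replicate 1 (0.12, adjusted p = 0.080). HSP90B1, the HSP90 of this compartment, kept the same order, at 1447, 1502 and 1489 CPM in vehicle, 1261 with Poria and 1623 with Atractylodis (difference 0.36 ± 0.047, adjusted p = 3e-06). Its small rise with Atractylodis (0.13 ± 0.038) was not called without vehicle replicate 1 (0.12, adjusted p = 0.074) or under the GC correction described below (0.062, adjusted p = 0.19).

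CALR (ENSG00000179218, chr19:12938578-12944489 on the plus strand), the lectin chaperone calreticulin, was at 1879.6, 1898 and 1888 CPM in vehicle, 1319.8 with Poria and 1834 with Atractylodis. Only Poria was called (-0.52 ± 0.039, adjusted p = 4.2e-11), with a difference of 0.47 ± 0.047 (adjusted p = 2.2e-08). MANF, a secreted stress-responsive factor, was at 204, 206 and 205 CPM in vehicle, 138 with Poria and 199.7 with Atractylodis, and PDIA4, a disulfide isomerase, at 720.1, 744 and 751 CPM in vehicle, 529 with Poria and 718 with Atractylodis. Each was low with Poria only, and the differences were 0.54 ± 0.045 and 0.44 ± 0.046. HERPUD1, a scaffold for degradation of misfolded proteins, was lower with both extracts, at 123, 128 and 130.1 CPM in vehicle, 60.8 with Poria and 108 with Atractylodis. Both were below all vehicle libraries, and Poria was much the lower (difference 0.82 ± 0.052, adjusted p = 3.3e-12). EDEM1, which marks glycoproteins for degradation, was the exception with Poria (-0.023 ± 0.04, adjusted p = 0.7) and rose with Atractylodis (0.27 ± 0.039, adjusted p = 2.9e-06).

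Genes of the integrated stress response showed the same split. Of 21 tested, 12 were lower and 3 higher with Poria, 12 were higher and 2 lower with Atractylodis, 6 were called in opposite directions, and 16 were called higher with Atractylodis than with Poria. All genes tested gave 18.0% lower and 15.9% higher with Poria, and 15.6% higher and 17.9% lower with Atractylodis. They gave 0.757% in opposite directions and 6.08% higher with Atractylodis than with Poria. The 3 higher genes with Poria and the 2 lower with Atractylodis do not exceed these shares. The medians were -0.18 and 0.15. DDIT3 (ENSG00000175197, chr12:57516588-57521737 on the minus strand), the death-linked factor CHOP, was at 32.3, 35.6 and 33.4 CPM in vehicle, 18.9 with Poria and 35.8 with Atractylodis. It fell with Poria (-0.83 ± 0.062, adjusted p = 3e-11), the Atractylodis library lay just above the vehicle range without a call (0.085 ± 0.056), and the difference was 0.92 ± 0.073 (adjusted p = 4.3e-10). ASNS, asparagine synthetase, was at 58.7, 59.7 and 57.3 CPM in vehicle, 52.8 with Poria and 84.8 with Atractylodis. PSAT1, of serine synthesis, was at 67.1, 71.1 and 72.6 CPM in vehicle, 57.9 with Poria and 92.9 with Atractylodis. For both enzymes Poria lay below and Atractylodis above every vehicle library, and the differences were 0.68 ± 0.055 (adjusted p = 4.8e-10) and 0.68 ± 0.056 (adjusted p = 8.5e-10). NUPR1, a small stress-induced chromatin protein, was at 9.92, 9.74 and 10.3 CPM in vehicle, 6.14 with Poria and 13.2 with Atractylodis, again on opposite sides of vehicle (difference 1.11 ± 0.11, adjusted p = 3.3e-08). DESeq2 called neither the fall of ASNS with Poria (adjusted p = 0.12) nor the rise of NUPR1 with Atractylodis (adjusted p = 0.055). SLC7A11 belongs to this list too, and PPP1R15A, which ends the response, was lower with both extracts (-0.59 ± 0.045 and -0.23 ± 0.044).

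Mitotic genes were lower with Atractylodis. Of 24 tested, 19 were lower and 0 higher with Atractylodis, 9 were lower and 5 higher with Poria, and 21 were called lower with Atractylodis than with Poria. Over all genes tested the shares were 17.9% lower with Atractylodis, 18.0% lower and 15.9% higher with Poria, and 6.43% lower with Atractylodis than with Poria, so that the count of higher genes with Poria is near its background. The medians were -0.29 and -0.06, and the higher genes with Poria numbered 3 without vehicle replicate 3 and 1 under the GC correction. MKI67, the proliferation antigen Ki-67, was at 331, 296 and 314 CPM in vehicle, 287 with Poria and 218 with Atractylodis. The Atractylodis library lay below all others (-0.53 ± 0.052, adjusted p = 3.1e-06), Poria was slightly below vehicle without a call (-0.13 ± 0.05), and the difference was -0.40 ± 0.062 (adjusted p = 0.0008). KIF20A, a kinesin of cytokinesis, was at 139, 133 and 134 CPM in vehicle, 129.6 with Poria and 98.2 with Atractylodis, with a difference of -0.40 ± 0.049 (adjusted p = 1.1e-06). CDC20, which activates the anaphase-promoting complex, fell with both extracts instead (-0.33 ± 0.038 and -0.43 ± 0.039), with no called difference.

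Cytokine and NF-kB target genes were lower with Atractylodis in 12 of 20 cases and higher in 1, against 17.9% and 15.6% of all genes tested. With Poria 4 were lower and 4 higher, near the shares of all genes tested (18.0% and 15.9%), and 8 were called lower with Atractylodis than with Poria (6.43% of all genes tested). The medians were -0.24 and -0.03. PTGS2, the inducible cyclooxygenase, was at 87.8, 88.2 and 84.5 CPM in vehicle, 82.5 with Poria and 54.9 with Atractylodis. LIF, a cytokine of the interleukin-6 family, was at 57.1, 57.2 and 53.1 CPM in vehicle, 53.05 with Poria and 37.3 with Atractylodis. In both, Atractylodis was far below the vehicle range and Poria just below it without a call, and the differences were -0.59 ± 0.054 (adjusted p = 6.7e-09) and -0.51 ± 0.064 (adjusted p = 1.8e-06). CXCL8, the neutrophil chemokine interleukin-8, was at 11.7, 13.3 and 11.4 CPM in vehicle, 21.1 with Poria and 9.40 with Atractylodis. It rose with Poria (0.80 ± 0.075, adjusted p = 3.8e-09) and fell with Atractylodis (-0.37 ± 0.093, adjusted p = 0.0025), although DESeq2 did not call the fall (adjusted p = 0.065). FOSL1, a subunit of AP-1, was at 279, 254 and 268 CPM in vehicle, 249 with Poria and 158 with Atractylodis, and the difference was -0.66 ± 0.054 (adjusted p = 2.6e-08). BIRC3, an inhibitor of apoptosis, and SLC27A2, a fatty acid transporter, were among the genes lowered by Atractylodis alone (-0.80 ± 0.091 and -0.76 ± 0.13), as was KRTAP2-3, a keratin-associated protein, at 6.38, 5.92 and 5.76 CPM in vehicle, 6.61 with Poria and 1.73 with Atractylodis (-1.80 ± 0.16, adjusted p = 5.7e-10).

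Rises with Atractylodis alone were smaller. LURAP1L was at 14.7, 15.2 and 14.0 CPM in vehicle, 15.1 with Poria and 23.1 with Atractylodis, and FAM13C at 5.02, 4.83 and 5.03 CPM in vehicle, 5.38 with Poria and 9.33 with Atractylodis. In both, the Atractylodis library stood above the rest, with differences of 0.62 ± 0.082 (adjusted p = 4.5e-06) and 0.79 ± 0.13 (adjusted p = 9e-05). DDIT4, a stress-induced brake on mTORC1, was at 52.6, 55.2 and 58.8 CPM in vehicle, 60.8 with Poria and 89.1 with Atractylodis. PLIN2, the coat protein of lipid droplets, was at 60.7, 59.2 and 59.1 CPM in vehicle, 62.3 with Poria and 93.8 with Atractylodis. Both were called higher for Atractylodis (0.68 ± 0.049 and 0.65 ± 0.043) and different between the extracts. Under the GC correction described below, DDIT4 was called higher with Poria too (0.25). HTR2A, a serotonin receptor, NEBL, an actin-binding nebulin relative, and CBS, of cysteine synthesis, rose by 0.66 ± 0.11, 0.54 ± 0.099 and 0.40 ± 0.084 with Atractylodis, the last without a call by DESeq2 (adjusted p = 0.052).

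Levels at the lower doses are given as CPM scaled over all 9 libraries with 1 library per dose and no test. The genes were chosen at 500 µg/mL, and all doses share the vehicle libraries. The 1489 genes higher with both extracts already had median log2 changes of 0.19 (Poria) and 0.15 (Atractylodis) at 20 µg/mL, 0.23 for each at 100, and 0.27 and 0.28 at 500. For the 1952 lower genes the medians were -0.19 and -0.15 at 20, -0.24 and -0.23 at 100, and -0.26 for each at 500. CCN2, with a vehicle mean of 201 CPM, showed 121, 119.7 and 120.2 CPM over the Poria doses of 20, 100 and 500 µg/mL and 105, 108 and 100.4 CPM over those of Atractylodis. Its level at 20 µg/mL was thus near that at 500. NQO1, from 129.7 CPM, was at 150.0, 190.0 and 247 CPM with Poria and 165, 173 and 238 CPM with Atractylodis, higher at each step. Of the genes that differed between the extracts, TXNIP was at 9.57, 16.3 and 216 CPM over the Poria doses and 10.0, 10.6 and 6.35 CPM over those of Atractylodis, and HMOX1 at 68.7, 73.7 and 105 and 77.0, 85.6 and 203 CPM. For TXNIP and HMOX1, from vehicle means of 10.3 and 86.9 CPM, the high levels were seen at 500 µg/mL. The sets called for Atractylodis alone had medians on the same side of 0 with both extracts at 20 µg/mL. The 356 higher ones had medians of 0.09, 0.09 and -0.03 over the Poria doses and 0.10, 0.15 and 0.25 over those of Atractylodis, and the 438 lower ones -0.10, -0.11 and 0.00 and -0.13, -0.15 and -0.25. FAM13C, from 5.01 CPM, was at 7.62, 7.63 and 5.41 CPM with Poria and 8.63, 8.22 and 9.41 CPM with Atractylodis, and HTR2A, from 5.54 CPM, at 8.21, 7.07 and 5.57 and 8.50, 9.58 and 8.75 CPM, so that both were near the vehicle level at 500 µg/mL of Poria and above it at its lower doses. KRTAP2-3, from 6.08 CPM, was at 3.31, 3.81 and 6.65 CPM with Poria and 2.60, 2.50 and 1.75 CPM with Atractylodis. It was thus below the vehicle level at the lower doses of Poria too. For the genes of Poria alone, the 301 higher ones had medians of 0.05, 0.11 and 0.26 with Poria. With Atractylodis their medians were 0.01, 0.05 and -0.01. FAM156B, from 11.9 CPM, was at 7.28, 7.02 and 3.26 CPM with Poria and 10.6, 5.75 and 11.4 CPM with Atractylodis. It was thus below the vehicle level at 100 µg/mL of Atractylodis too. The chaperone list had medians of -0.09, -0.14 and -0.34 with Poria and -0.07, -0.04 and 0.05 with Atractylodis. The aryl hydrocarbon receptor list had medians of 0.05, 0.45 and 0.78 with Poria and 0.29, 0.04 and 0.17 with Atractylodis. At 20 µg/mL its median was thus higher with Atractylodis. Over all tested genes the same medians lay within 0.01 of 0.

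**Figure D4:**
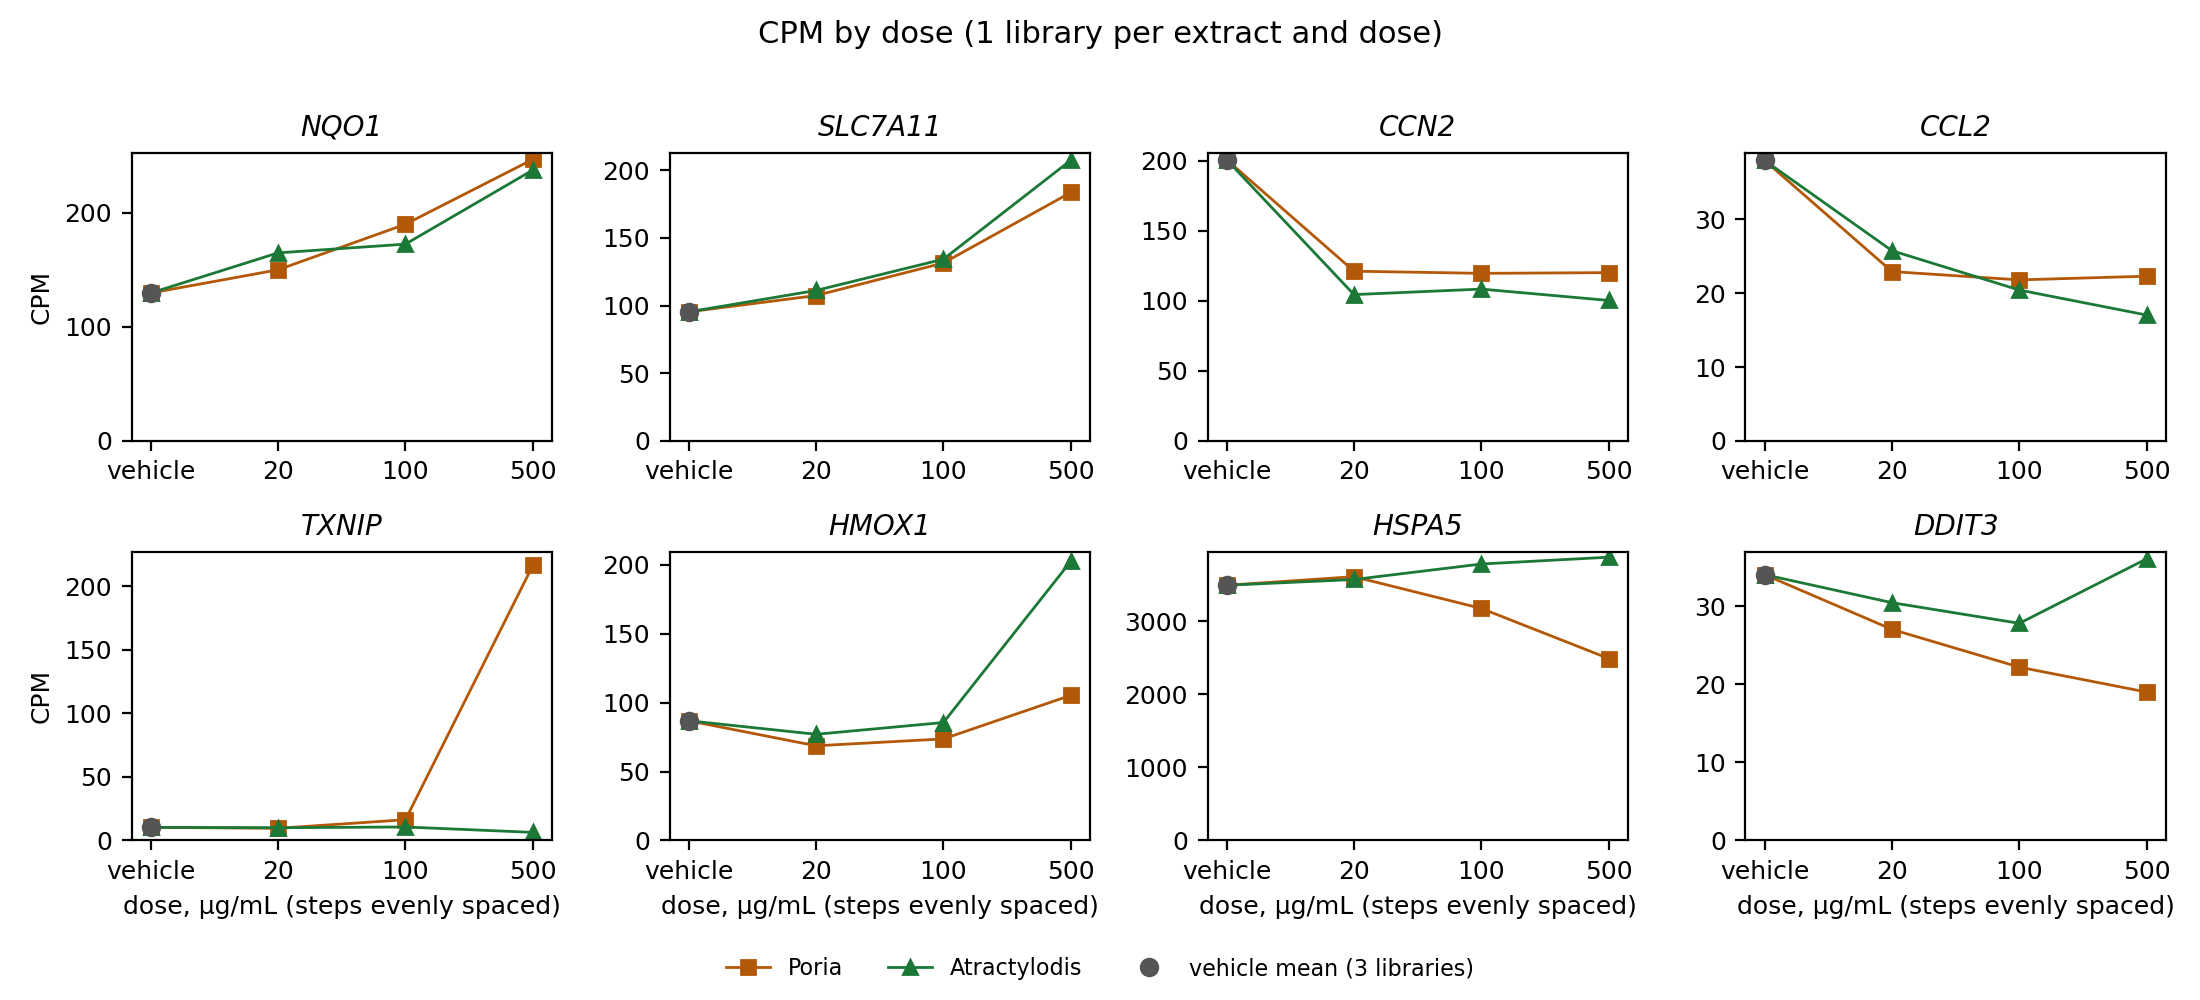
The x axis is the dose in µg/mL with vehicle at the left and steps evenly spaced, and the y axis is CPM from 0. Grey circles are the mean of 3 vehicle libraries, and squares (Poria) and triangles (Atractylodis) are single libraries. NQO1 and SLC7A11 are higher at every step with both extracts, CCN2 and CCL2 are already low at 20 µg/mL, TXNIP is high at 500 µg/mL of Poria alone, and HSPA5 is at different levels with the extracts at 100 and 500 µg/mL.

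The shared change also ran along the base composition of the transcripts. Genes called higher for both extracts had a median GC content of 41.9% and a median longest transcript of 4924 bases, and genes called lower for both 56.4% and 3054 bases, against 48.2% and 3228 bases for all genes tested. Among genes under 40% GC, 19.0% were called higher for both and 1.89% lower. At 60% GC or more the shares were 3.36% and 24.2%. Across 17183 genes, which are not independent replicates, Spearman's rho of the change with GC content was -0.281 for Poria and -0.293 for Atractylodis, which share the vehicle libraries, and -0.015 for the difference between the extracts. With each library corrected for GC content and length, 1130 genes were called higher and 1608 lower for both extracts, of which 885 and 1207 were called without the correction too. Whether sample handling had a part in this pattern was not tested. The named changes of AKR1B10, NQO1, SLC7A11, CCN2, CCL2, TAGLN, TXNIP and CALR kept their calls under the correction. Calls were also gained. ARRDC4 (-0.30), NPTX1 (0.35), FAM13B (-0.21), DDIT3 (0.14) and TIPARP (-0.15) were called with Atractylodis too, and so no longer counted as moved by Poria alone. MKI67 and PTGS2 (-0.18 each) were called lower with Poria.

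**Figure D5:**
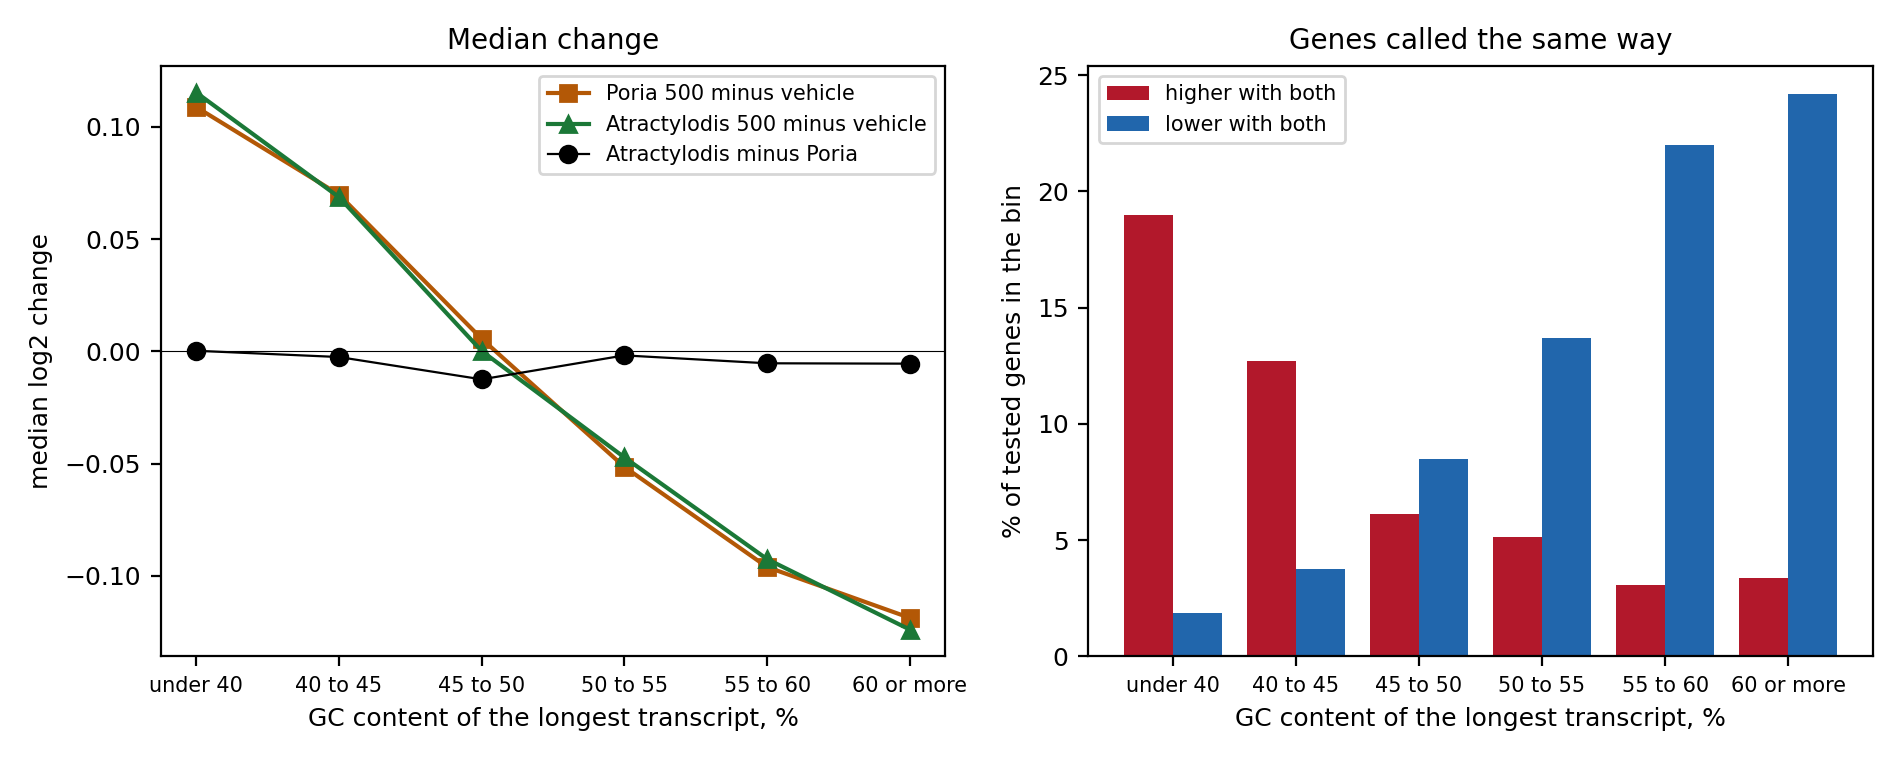
Tested genes in 6 bins of GC content of their longest transcript. Left, the y axis is the median log2 change of each extract at 500 µg/mL minus vehicle, and of Atractylodis minus Poria. Right, bars from 0 give the percentage of tested genes in each bin called higher (red) or lower (blue) for both extracts. Both extract lines descend from 0.11 and 0.12 under 40% GC to -0.12 at 60% or more, while the line of the difference stays within 0.02 of 0.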

How the data were processed

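RNA-seq libraries were made with the MGIEasy RNA Directional kit from RNA with an integrity number above 7, and sequenced as paired reads of 100 bases, per the labels' protocols. The submitters' processing notes name FastQC 0.11.9, Trim Galore 0.6.5, STAR 2.7.3a, RSEM 1.3.3 and the build hg38, and the annotation release, and whether counting used strand, are not given in the sources used here. Per gene, the authors deposited RSEM expected counts, not normalized, for 60675 Ensembl genes in 279 columns. Of these, 9 belong to the samples of this series and 270 were not used here. Expected counts were rounded to whole numbers before testing.

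Groups came from the sample titles. edgeR 4.0.16 in R 4.3.3 was run with TMM scaling and filterByExpr (count minimum 10, total minimum 15), which kept 17300 genes and left out 43375, followed by robust quasi-likelihood fits. Genes were called at a Benjamini-Hochberg adjusted p below 0.05. The group test fitted 2 groups (3 residual degrees of freedom), and the single-extract tests and their difference came from a fit of 3 groups (2 residual degrees of freedom, all from vehicle). The common biological coefficient of variation was 5.25% and 2.56%. Standard errors are log2 changes over the square root of the F statistic. Symbols, positions (GRCh38), GC content and longest transcripts are those of GENCODE 29, with symbols also from a table of gene names. The correction for GC content and length entered natural splines (5 degrees of freedom) as offsets. DESeq2 1.42.0 was an alternative, and the further alternatives were other scalings and filters, a fit without robust weights, all 9 libraries in 1 fit and leaving out each library. Values by dose come from the 9 libraries with a pseudocount of 0.5 for medians. The test scripts were tested on simulated counts. In the smallest library (40269665 counts) a gene at 4 CPM has 161 counts and a counting error of 7.88%, above both coefficients, so that for the less abundant of the named genes counting limits the precision as well as the number of libraries does.

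Genes were named by rule: the 12 higher and 12 lower with the largest smaller-of-2 change among genes called in the group test and for both extracts, the 6 higher and 6 lower per extract with the largest difference among genes called for 1 extract, both at a mean log2 CPM of 2 or more and with a symbol, up to 4 members per gene list with the smallest p in the group test, and fixed genes. These came to 175 genes, of which the text gives a part. Further list members were named after their values were seen. The members and the lists were chosen with earlier results of these data known. No set test, no overlap test and no p-value adjusted over a list was used.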

Additional observations from a re-analysis of the deposited data

Results flagged for a closer look

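For 20 genes named in this text the change with Poria and the change with Atractylodis were both called, and in opposite directions, with the difference itself called by edgeR's quasi-likelihood test. Over all genes tested, 131 showed this. The log2 difference of Atractylodis minus Poria at 500 µg/mL was -5.10 for TXNIP, -1.17 for CXCL8, -0.74 for CCN1, -0.44 for CCNA2, a cyclin of S and G2 phase, and -0.34 for AJUBA. It was above 0 for the other 15. Among genes of the integrated stress response it was 1.11 for NUPR1, 0.94 for CHAC1, a glutathione-degrading enzyme, 0.68 for ASNS, 0.68 for PSAT1, 0.65 for PHGDH, the entry enzyme of serine synthesis, and 0.52 for SLC3A2, the shared chain of several amino acid transporters. Among chaperones it was 0.63 for HSPA5, 0.38 for CRELD2, 0.36 for HSP90B1, and 0.32 and 0.30 for the disulfide isomerases PDIA6 and PDIA3. The rises with Atractylodis were not called for HSPA5 (0.12, adjusted p = 0.080), HSP90B1 (0.12, adjusted p = 0.074) and CRELD2 (0.096, adjusted p = 0.20) without vehicle replicate 1, nor for CRELD2 (0.13, adjusted p = 0.055) and PDIA3 (0.11, adjusted p = 0.080) without vehicle replicate 3. Corrected for GC content and length, the changes with Poria were not called for CCNA2 (0.097), CHAC1 (-0.29) and SLC3A2 (-0.081), nor was the rise of PDIA3 with Atractylodis (0.085, adjusted p = 0.061). DESeq2 did not call the changes with Poria of ASNS (adjusted p = 0.12), CCNA2 (0.11), CHAC1 (0.18), AJUBA (0.16), GPNMB (0.23) and GDF15 (0.10), or the changes with Atractylodis of CXCL8 (0.065), NUPR1 (0.055), CHAC1 (0.071), CRELD2 (0.26) and ANGPTL4 (0.16).

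GDF15, a secreted stress cytokine, stood at 4.90, 4.00 and 3.93 CPM in vehicle, 2.93 with Poria and 9.46 with Atractylodis, a difference of 1.69. ANGPTL4, an inhibitor of lipoprotein lipase, stood at 22.9, 23.0 and 23.2 CPM in vehicle, 12.5 with Poria and 26.8 with Atractylodis, a difference of 1.10. SQSTM1, the autophagy receptor p62, stood at 547, 553 and 547 CPM in vehicle, 467 with Poria and 817 with Atractylodis, a difference of 0.81, and GPNMB, a lysosomal glycoprotein, at 33.9, 33.4 and 30.9 CPM in vehicle, 29.2 with Poria and 41.5 with Atractylodis, a difference of 0.51. In all 4, the Poria library was the lowest of the 5 and the Atractylodis library the highest. The fall of GPNMB with Poria was not called without vehicle replicate 1 (-0.15, adjusted p = 0.061), nor was that of GDF15 under the correction for GC content and length (-0.38, adjusted p = 0.053).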

How the results depend on the processing

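With all 9 libraries in 1 fit of 7 groups, where the spread no longer holds the difference between the extracts, 3153 genes were called higher and 3667 lower. Leaving out 1 vehicle library, the group test called 703 to 841 higher and 1074 to 1347 lower, and leaving out 1 treated library 2704 to 2746 and 3096 to 3113. The count of genes higher with Atractylodis than with Poria ran from 944 to 1719 without 1 vehicle library, and that of genes lower with Poria alone from 347 to 560. DESeq2 called fewer genes for single libraries: 1022 higher and 1755 lower with Poria, 1052 and 1892 with Atractylodis, 316 and 310 for the difference, 499 and 1123 for both extracts, 36 in opposite directions, 61 and 131 with Poria alone, and 99 and 138 with Atractylodis alone. The cause was not tested. Of 4218 values of named genes under the alternatives, 4090 kept their direction and their side of the threshold, 74 lost a call and 33 gained one. A further 20, called in neither fit, changed sign. DESeq2 gave no adjusted p for another 22, which are not counted. CTSD, a lysosomal protease, moved with Atractylodis from -0.024 without a call to a called 0.10 under the correction for GC content and length. No paired analysis was possible because vehicle and the treated libraries share only replicate number 2. Each treated condition is 1 library, so its own variation is unknown.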

Other observations

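Lysosome and autophagy genes and lipid oxidation genes also differed between the extracts. Over all genes tested, 15.6% were called higher and 17.9% lower with Atractylodis, and 15.9% higher and 18.0% lower with Poria. Of 20 lysosome and autophagy genes tested, 8 were called higher and 1 lower with Atractylodis, 0 higher and 8 lower with Poria, and 11 higher with Atractylodis than with Poria, with medians of 0.11 and -0.06. CTSD, the protease cathepsin D, was at 303, 312 and 310.4 CPM in vehicle, 232 with Poria and 304 with Atractylodis, so that the Poria library alone lay outside the vehicle range (-0.41 ± 0.038, adjusted p = 1.6e-09). Of 13 genes of fatty acid oxidation, 9 were called higher with Atractylodis and 1 with Poria, and 5 were called higher with Atractylodis than with Poria, with medians of 0.21 and 0.03. DESeq2 called 4 of the 13 higher with Atractylodis. Of 22 hypoxia and glycolysis genes, 12 were called lower and 1 higher with Poria, and 6 lower and 7 higher with Atractylodis. Lower for both were 6, against 11.3% of all genes tested. Higher with Atractylodis than with Poria were 7, or 12 without vehicle replicate 2, against 6.08% of all genes tested. Corrected for GC content and length, 3 of the 22 were called lower with Atractylodis and 3 lower for both.

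Single genes of other lists rose with both extracts. IFI44, an interferon-induced gene, was at 35.2, 37.8 and 35.0 CPM in vehicle, 44.1 with Poria and 49.8 with Atractylodis, and STAT2, a mediator of interferon signals, at 24.3, 25.4 and 25.4 CPM in vehicle, 31.0 with Poria and 34.3 with Atractylodis. Both treated libraries exceeded every vehicle library in each gene, with group changes of 0.38 ± 0.063 (adjusted p = 0.0022) and 0.38 ± 0.059 (adjusted p = 0.0017). The interferon list as a whole was mixed, with 5 of 22 higher and 2 lower for both extracts and medians of 0.01 for each. Of all genes tested 8.61% were called higher and 11.3% lower for both. SGK1, a kinase that glucocorticoids induce, was at 58.5 to 60.9 CPM in vehicle, 85.4 with Poria and 72.4 with Atractylodis (0.40 ± 0.065, adjusted p = 0.0024). EGR1, an immediate early transcription factor, was higher with both extracts, at 19.4, 21.2 and 18.2 CPM in vehicle, 36.2 with Poria and 26.5 with Atractylodis, although 7 of the 22 immediate early genes tested were called lower for both and EGR1 was the 1 called higher. Its group call (0.68 ± 0.14, adjusted p = 0.022) was lost without vehicle replicate 1 (0.67, adjusted p = 0.066) or 3 (0.62, adjusted p = 0.059). Corrected for GC content and length, 3 of the 22 immediate early genes were called higher for both extracts and 3 lower. DESeq2 called 1 of them higher and 2 lower for both.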
